A study of Drosophila melanogaster with 2 samples.

Results

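The peaks described here are the sites of GFP-tagged Dachshund that lay deep inside introns of autosomal genes. A peak of the list that passed the irreproducible discovery rate (IDR) procedure was taken when its summit was off the X, in a protein-coding or ncRNA gene body and outside annotated exons. The summit also had to be more than 500 bp from any transcription start site (TSS) and more than 5000 bp from the nearest protein-coding TSS. Of 4137 IDR peaks, 3252 of them autosomal, 526 met the rule, and they lay in 270 host genes. The chromatin came from whole prepupae of both sexes pooled, from a transgenic dac-GFP line that stably carries dac with GFP fused at its C-terminus, and it was sonicated and recovered with an antibody against GFP. There was 1 group with 2 biological replicates, numbered 1 and 3, and both carried the transgene. An age of 48 days is also written in the labels and does not match a prepupa. No untagged, input or mock library was analysed here, so recovery that does not depend on the tagged protein cannot be told apart from Dachshund sites. Since whole animals were used, a weak site in many cells and a strong site in few cells cannot be told apart.

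Dachshund is a nuclear cofactor of the Ski/Sno/Dac family that acts in protein complexes on chromatin. In flies it is required in the eye, the legs, the genitalia and the mushroom bodies. Long introns of developmental regulators often hold transcriptional enhancers, so a peak far from any start site may lie in an enhancer of its host gene, in an enhancer of a neighbour, or at neither.

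The windows of 4 of the 5 strongest of these peaks, 50 bp to either side of the summit, are printed because they show how base composition varied at the top of the list. Over 201 bp, GC content was 47.3% at CG32486, 34.8% at dpp, 33.3% at Eip75B and 44.3% at simj. The member that ranked 3, in dnr1, is not printed and had the highest of the 5, 56.2%. Sequences are of the RefSeq Release 6 genome (dm6), plus strand, with 1-based coordinates. Capitals in all windows mark 2 words defined further on, CCACTGTGC or its reverse complement GCACAGTGG, and a run beginning GTGCACTGA. No capitals stand in these 4 windows, so neither word occurred there.
CG32486 chr3L:3060771-3060871: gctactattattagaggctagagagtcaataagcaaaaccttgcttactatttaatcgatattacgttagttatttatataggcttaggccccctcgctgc
dpp chr2L:2433589-2433689: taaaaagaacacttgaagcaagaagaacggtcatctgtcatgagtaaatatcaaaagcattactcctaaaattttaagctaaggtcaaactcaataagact
Eip75B chr3L:18009129-18009229: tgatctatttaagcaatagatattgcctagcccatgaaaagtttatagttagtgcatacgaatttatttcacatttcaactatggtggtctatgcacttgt
simj chr3L:10683044-10683144: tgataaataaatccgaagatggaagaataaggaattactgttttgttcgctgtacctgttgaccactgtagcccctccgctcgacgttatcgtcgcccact

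The next windows reach 100 bp to either side of the summit and are printed because all 5 held the 9-letter word CCACTGTGC on 1 strand or the other. They belong to heca, whose product Headcase restrains proliferation, to the ecdysone-inducible ETS factor gene Eip74EF, to the steroid receptor coactivator gene tai, to the Wnt ligand gene wg and to the semaphorin gene Sema1a. In Sema1a the window held both orientations, facing each other across the summit.
heca chr3R:30296051-30296251: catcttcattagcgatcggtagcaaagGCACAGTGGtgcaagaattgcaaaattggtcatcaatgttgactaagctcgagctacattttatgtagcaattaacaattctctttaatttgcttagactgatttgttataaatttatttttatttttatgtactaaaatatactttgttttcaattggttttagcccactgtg
Eip74EF chr3L:17611425-17611625: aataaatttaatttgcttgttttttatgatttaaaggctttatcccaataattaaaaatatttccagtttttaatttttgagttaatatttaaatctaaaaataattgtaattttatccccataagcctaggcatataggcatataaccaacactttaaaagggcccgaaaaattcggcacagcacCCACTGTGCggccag
tai chr2L:9207231-9207431: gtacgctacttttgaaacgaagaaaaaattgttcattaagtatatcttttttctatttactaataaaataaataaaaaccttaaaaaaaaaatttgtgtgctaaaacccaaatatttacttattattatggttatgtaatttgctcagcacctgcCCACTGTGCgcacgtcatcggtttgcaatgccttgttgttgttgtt
wg chr2L:7313570-7313770: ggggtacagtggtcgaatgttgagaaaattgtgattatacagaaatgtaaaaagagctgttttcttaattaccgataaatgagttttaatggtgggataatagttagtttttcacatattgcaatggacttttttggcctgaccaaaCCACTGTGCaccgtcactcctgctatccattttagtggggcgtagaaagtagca
Sema1a chr2L:8575063-8575263: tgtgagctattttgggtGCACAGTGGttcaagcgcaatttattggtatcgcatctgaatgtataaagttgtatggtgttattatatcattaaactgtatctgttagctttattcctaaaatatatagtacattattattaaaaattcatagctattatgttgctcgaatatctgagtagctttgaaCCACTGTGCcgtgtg

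The last windows hold a longer shared run, GTGCACTGAGAGAAA, printed in capitals where it was found. They lie in the non-coding RNA gene lncRNA:CR46006, in uif, which encodes a transmembrane protein, and in pum, which encodes the RNA-binding translational repressor Pumilio. In pum the run was on the minus strand, and its reverse complement is therefore in capitals. There GTGCACTGA also stood on the plus strand, overlapping that run, and its last letters are in lower case. These 3 genes were chosen after their sequences were seen.
lncRNA:CR46006 chr3L:10328766-10328966: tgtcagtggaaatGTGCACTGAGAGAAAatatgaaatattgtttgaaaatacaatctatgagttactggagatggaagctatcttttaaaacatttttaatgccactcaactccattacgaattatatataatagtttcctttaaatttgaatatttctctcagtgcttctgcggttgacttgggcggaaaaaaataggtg
uif chr2L:6991160-6991360: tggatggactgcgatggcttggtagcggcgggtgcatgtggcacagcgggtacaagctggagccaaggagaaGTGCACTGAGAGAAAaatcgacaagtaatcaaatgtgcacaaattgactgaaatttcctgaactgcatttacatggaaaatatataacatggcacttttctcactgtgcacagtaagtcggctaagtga
pum chr3R:9147544-9147744: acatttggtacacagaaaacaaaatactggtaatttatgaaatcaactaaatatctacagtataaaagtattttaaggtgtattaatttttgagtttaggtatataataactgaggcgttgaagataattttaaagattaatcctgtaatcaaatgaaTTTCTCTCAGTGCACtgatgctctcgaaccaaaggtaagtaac

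Across the autosomes the distal introns were occupied more sparsely than introns near promoters. The 526 peaks fell on 25.1 Mb of eligible sequence, which gave 21.0 peaks per Mb (95% Poisson interval 19.2 to 22.8). Introns within 5 kb of a TSS held 850 peaks at 48.2 per Mb (45.0 to 51.5), promoters held 1252 at 85.3 per Mb (80.6 to 90.1), and intergenic sequence held 550 at 17.5 per Mb (16.0 to 19.0). The distal introns therefore took 16.2% of the autosomal peaks on 22.8% of the autosomal bases. These intervals, like all others below, cover only the number of peaks or windows counted, because read depth is unknown and peaks of 1 pair of libraries are not replicates. By arm the density was 25.8 per Mb on 2L, 20.7 on 3L, 20.4 on 3R and 19.0 on 2R. Chromosome 4 had 0 peaks on 0.283 Mb, with a Poisson interval that reached 13.0 per Mb, and 3 counts there would be 10.6 per Mb.

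The density fell with distance from the start site. Between 5 and 10 kb there were 286 members at 33.6 per Mb (29.8 to 37.7), between 10 and 20 kb 175 at 24.4 (20.9 to 28.3), and between 20 and 50 kb 60 at 13.7 (10.5 to 17.6). Beyond 50 kb there were 5 members on 5.03 Mb, at 0.995 per Mb (0.323 to 2.32). Of those 5, 2 were in hth, which encodes the homeodomain protein Homothorax, and 3 in lncRNA:CR46006. The most distant summit, in hth, was 83259 bp from the nearest protein-coding TSS, and the median over all members was 9634 bp (quartiles 6719 and 14109). Signal showed no matching decline, with medians of 163, 148, 166 and 172 in the 4 bands from near to far. The rule's limit of 5000 bp cut a continuous range. The 3 summits just inside it were in dar1 at 5058 bp with a signal of 127, shep at 5061 bp with 557 and Lrch at 5062 bp with 166. Just outside were summits in tna at 4988 bp with 352, in Pdk at 4989 bp with 139.5 and in tara at 4993 bp with 168.

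**Figure D1:**
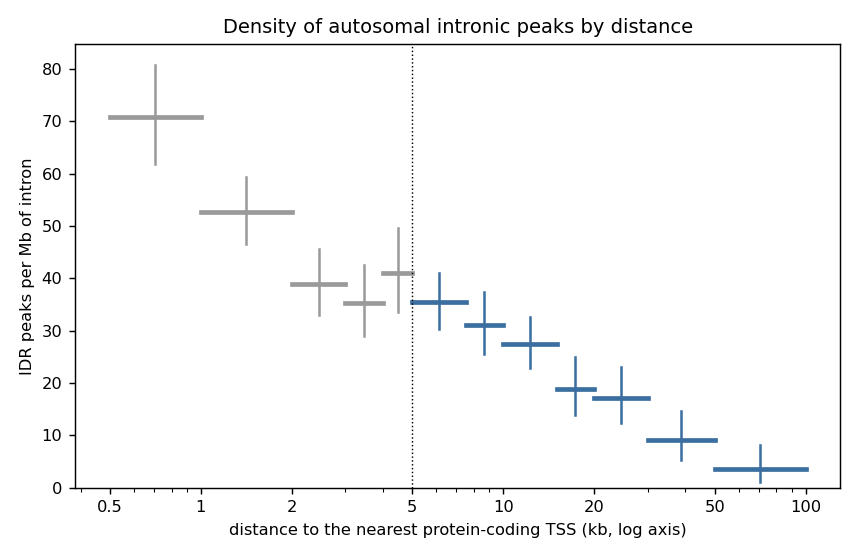
IDR peaks per Mb of autosomal intron (vertical axis) against distance to the nearest protein-coding TSS (kb, log axis), with 95% Poisson intervals as vertical lines and the width of each band as a horizontal line. Grey bands are introns within 5 kb and blue bands the distal introns; density fell from 70.8 per Mb at 0.5 to 1 kb to 3.53 per Mb at 50 to 100 kb.

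Some genes with very large introns held no member, and the gradient was not recomputed without them. Of the 20 genes with most eligible sequence, 17 had 0 members. Of the 20, 14 lay outside the outermost IDR peaks of their arms, where by definition there is no IDR peak of any class. The largest, Myo81F, had 1952 kb and 0 members. Between the outermost IDR peaks of each arm the eligible sequence came to 18.8 Mb and the density to 28.0 per Mb (25.6 to 30.5). All members lie between these limits by construction, so the density there could only rise. Large introns with 0 members also occurred between those limits. The RNA-binding protein genes bru3 (246 kb) and Rbp6 (150 kb) and the immunoglobulin-family gene dpr6 (128 kb) had none, whereas SKIP had 3 members on 130 kb and heph, a polypyrimidine-tract binding protein gene, 3 on 119 kb. Annotated transposable elements covered 9.11% of the eligible sequence and held 2 of the 526 summits (0.380%, Wilson interval 0.104 to 1.38), in sima and kibra.

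Over all genes with eligible sequence, members were densest in the early introns. The host's first intron, counted in the longest transcript that spans the summit, held 196 members (37.3%, Wilson interval 33.2 to 41.5) on 21.2% of the eligible bases, or 36.8 per Mb (31.9 to 42.4). Second introns held 178 at 27.7 per Mb (23.8 to 32.1). Later introns held 152 at 11.4 per Mb (9.65 to 13.3). The bases counted are those of all genes with eligible sequence, with or without a member. Densities within the host genes alone were not computed. When any annotated transcript was allowed, 281 members (53.4%) were in a first intron. The matching share of the eligible bases was not computed, so this count does not bear on how densely first introns were occupied. The host was also the gene with the nearest protein-coding TSS for 341 members (64.8%, 60.7 to 68.8), close to the 62.2% of positions taken every 100 bp over the eligible sequence. For the other 185 members the nearest protein-coding start site was that of another gene. They include all 16 members in ncRNA hosts, whose own start sites were not counted in this distance. Among all members, 28 lay in more than 1 gene body.

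The strongest member was in CG32486 (FBgn0266918), on chr3L from 3060630 to 3060989, with a signal of 1144. It ranked 22 in replicate 1 and 21 in replicate 3, and its summit was in the first intron, 5742 bp from the start of CG16753. The next was in the first intron of dpp, the BMP-type ligand gene (chr2L from 2433485 to 2433801), with a signal of 737 and ranks 68 and 108. These 2 were the only members among the 100 strongest IDR peaks, and 35 members were among the 500 strongest. In dnr1, which encodes a negative regulator of immune signalling, a peak of 664 ranked 636 in replicate 1 but 50 in replicate 3. In Eip75B, an ecdysone-induced nuclear receptor gene, the strongest of 7 peaks reached 635, with ranks 165 and 129.

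The hosts of the other members among the 25 strongest are named here by what their products are known to do, not by a gene list. Proteins that act on chromatin are encoded by simj, the p66 subunit of the NuRD complex (signal 609, ranks 88 and 238), Psc, a Polycomb group gene (603, ranks 127 and 191), JIL-1, a histone H3 kinase gene (529.9, ranks 228 and 229), and Gug, the fly Atrophin (482, ranks 281 and 351). Of these 4, only Psc is in the chromatin list used further on, which also holds tara. Transcription factor and cofactor genes were Snoo, with 2 of the 25 (581 and 496), shn (529.8), which mediates Dpp signalling, spen (511), crp (490.3), Eip74EF (487) and pnt (482), an ETS effector of EGF receptor signalling. Su(Tpl), a transcription elongation factor gene (538), kibra, a Hippo pathway gene (538), and shep, an RNA-binding protein gene (557), were also there. So were heca (585), tara (478), the Ryk-family Wnt receptor gene dnt (464), the metalloprotease gene sona (476), the cadherin gene Cad86C (459.8), and CG6959 (595) and CG8312 (478). The widest gap in rank among these was at spen, which ranked 677 in replicate 1 and 147 in replicate 3. Most members were far weaker. The median signal was 158 (interval 152 to 167, quartiles 131 and 227), the lowest was 110, and 61 members reached 300. Introns within 5 kb (168, 163 to 177), intergenic peaks (166, 157 to 171) and promoters (186, 177 to 196) had higher medians. The intervals of the first 2 classes overlapped that of the members, and the interval of the promoters did not.

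Nearly all members were seen in each replicate's own relaxed list. The IDR list was itself drawn from both replicates, so the selection favoured members with a peak in each list. The share found in both is therefore a description and not a separate test of agreement between replicates. An overlap of at least 1 bp with a peak in both lists was found for 522 of 526 (99.2%, Wilson interval 98.1 to 99.7). The shares were alike in introns within 5 kb (98.8%) and intergenic peaks (98.7%), and 91.7% at promoters. The exceptions were 1 peak each in Cad99C, rdx and CG10936, which lacked a peak in replicate 1, and 1 peak in tara, which lacked one in replicate 3. Under the stricter reciprocal overlap given in the last section, the members' share in both lists was 79.5% (75.8 to 82.7). At a q-value of 0.05 or less, 471 members had a peak in replicate 1 and 525 in replicate 3, and 470 (89.4%) in both. Over all sites replicate 1 had 5282 peaks at that threshold and replicate 3 had 13828. Across the 522 members the Spearman correlation of signal between replicates was 0.559, against 0.635 in introns within 5 kb, 0.593 in intergenic peaks and 0.736 at promoters, and 60 members ranked within the first 1000 in both lists. This is a description across peaks of the same 2 libraries, and the members span a narrower range of signal than promoters do. Not every member was a separate site in the replicates. The 526 members overlapped 504 distinct peaks of replicate 1 and 508 of replicate 3, and 17 adjacent pairs of members overlapped each other. Of the members, 383 were exactly 410 bp wide, and these had a median signal of 144 against 270 for the others.

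**Figure D2:**
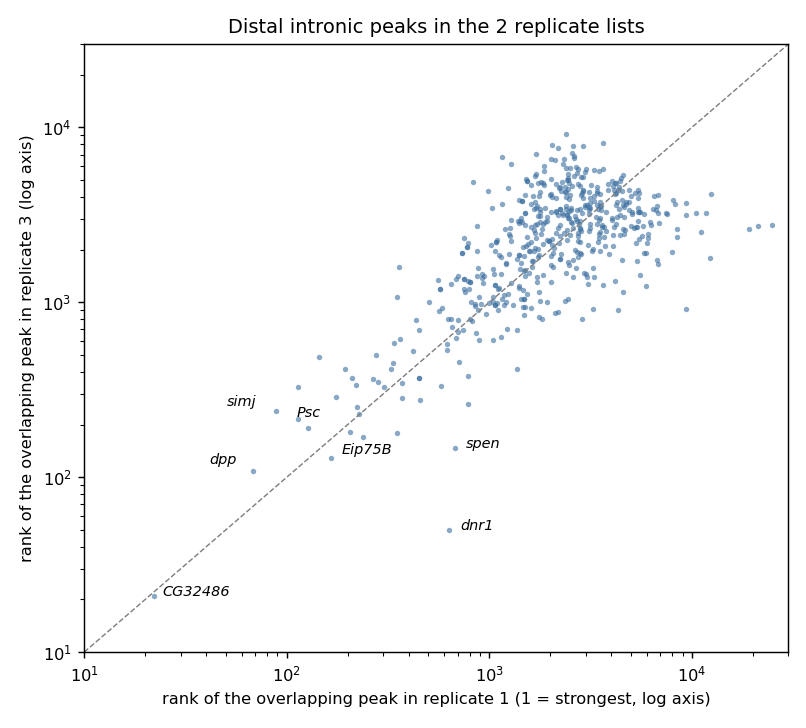
Rank of the overlapping peak in replicate 1 (horizontal axis) and replicate 3 (vertical axis) for the 522 members found in both lists, on log axes with 1 as the strongest; the dashed line marks equal rank. CG32486 stood at ranks 22 and 21, dnr1 and spen lay far below the line, and most members sat beyond rank 1000 in both lists.

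The members were unevenly spread over host genes. Of the 270 hosts, 148 had 1 member, 57 had 2 and 65 had 3 or more, and these 65 held 264 members. The median distance to the next member was 6282 bp, and 89 members had another within 1 kb. The most members were in heca and in Snoo, with 10 each. In heca they ran over 60.7 kb, from a cluster of 3 at 6.2 to 7.5 kb from the 5′ end of the gene (signals 217, 155 and 124) through the strongest at 18.2 kb (585) to the last at 66.9 kb (221). Snoo encodes a Ski/Sno family protein and so belongs to the same family as Dachshund. All 10 of its members lay in 1 intron over 66.0 kb, with signals from 117 to 581, and the 2 strongest were at 84.0 and 58.6 kb from the 5′ end. In the strongest 4137 peaks of single replicates, Snoo had 10 members in replicate 1 and 13 in replicate 3, and heca 7 and 9.

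Among the 17 hosts with 5 or more members the densest was tara, a SERTAD-family gene linked to trithorax-group function, with 9 members on 16.1 kb of eligible sequence, 1 for each 1.79 kb. Hosts with fewer members could be denser, such as corn with 4 on 4.63 kb. The 9 peaks of tara overlapped only 6 distinct peaks in each replicate. The pair at 6.3 and 6.5 kb (163 and 129.9) shared rank 1498 in replicate 1 and 3244 in replicate 3, and the pair at 9.2 and 9.4 kb (242 and 155) shared ranks 732 and 1920. The pair at 10.4 and 10.6 kb (262 and 253) shared rank 851 in replicate 1. The other 3 peaks of the gene were separate, with signals of 478, 138 and 159. Eip75B, sbb and Fas3 had 7 members each. In Eip75B they spanned 41.2 kb with signals from 164 to 635. In sbb, a transcriptional corepressor gene, they lay between 10.4 and 23.9 kb with signals from 117 to 329.9, and 7 further IDR peaks were in its introns within 5 kb of a TSS. In Fas3, a homophilic adhesion molecule gene, they spanned 23.5 kb of the first intron and none exceeded 232. CG42741 and Prosap, the fly Shank scaffold gene, had 6 each. Another 9 genes had 5 each, of which Eip74EF and pnt had the strongest peaks.

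**Figure D3:**
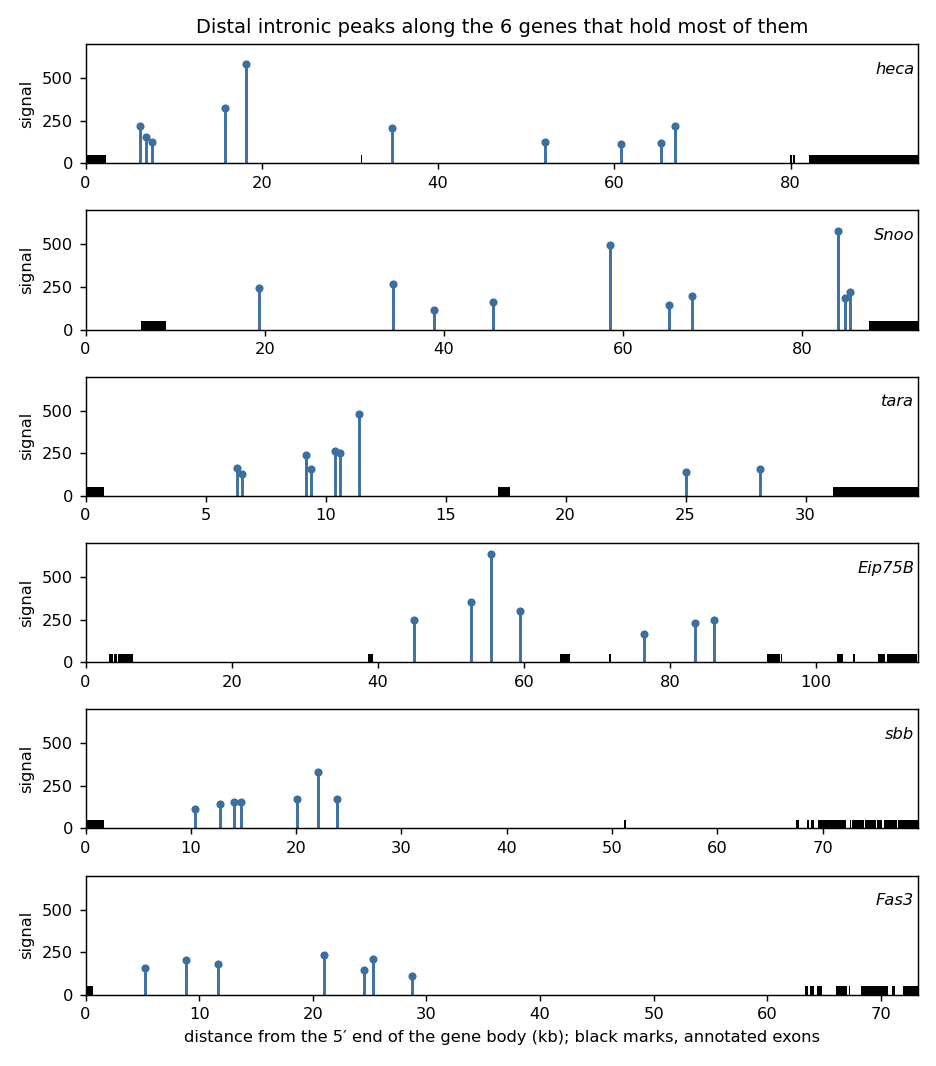
Signal of each member (vertical axis, the authors' value) against the distance of its summit from the 5′ end of the gene body (kb) in heca, Snoo, tara, Eip75B, sbb and Fas3; black marks are annotated exons of all transcripts. Single strong peaks (585 in heca, 635 in Eip75B) stood among weaker ones, and paired stems in tara are overlapping calls.

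Of the 270 hosts, 260 were protein-coding and held 510 members. The other 16 members were in 10 ncRNA genes. The strongest of these was in lncRNA:CR45054 (254, ranks 1103 and 1187). The let-7 complex transcript lncRNA:let7C, the precursor of conserved microRNAs that time the larval to adult transition, held 3 members (144, 129.8 and 120.4). Their ranks ran from 2027 to 2249 in replicate 1 and from 2676 to 6616 in replicate 3. The Bithorax complex transcript lncRNA:bxd held 1 member of 138.

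Genes of the ecdysone response and of signalling, growth and chromatin control held members more often than genes at large. Of all 1574 autosomal genes with eligible sequence, 270 hosted a member, 17.2%. The 10 gene lists were chosen with earlier results of these data known, so their counts are a description. Host genes made up 11 of 20 ecdysone response genes (Wilson interval 34.2% to 74.2%), 19 of 33 disc morphogen pathway genes (57.6%, 40.8 to 72.8), 9 of 18 growth and cell cycle genes (29.0% to 71.0%) and 9 of 22 chromatin regulators (40.9%, 23.3 to 61.3). Genes with long introns offer more sequence and were hosts more often than the shortest. The host share was 4.64% of genes with up to 5 kb of eligible sequence. It was 18.1% of those with 5 to 10 kb and 25.7% of those with 10 to 20 kb. Densities per Mb are therefore given as well. The ecdysone list had 70.6 members per Mb (47.9 to 100), and 60.9 without Eip75B, against 21.0 over all genes. That value includes 38 genes with more than 80 kb, at 3.59 per Mb. Genes with up to 5 kb of eligible sequence had 39.4 per Mb, those with 5 to 10 kb 35.1 and those with 10 to 20 kb 33.2. The median gene had between 10 and 20 kb in the ecdysone and morphogen lists, 9.88 kb in the growth list and 3.20 kb in the chromatin list. The chromatin list had 88.7 (57.9 to 130) and the growth list 94.8 (61.4 to 140). Both lists hold tara, and without it they had 61.3 and 64.6. The morphogen list had 51.1 (35.8 to 70.8), and 46.0 without pnt.

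In the ecdysone list the hosts with the highest signal were Eip75B (7 members, up to 635), Eip74EF (5, up to 487), the ABC transporter gene E23 (3, up to 426) and tai (2, up to 316). Outside that rule ftz-f1, the nuclear receptor gene that gives competence to the prepupal ecdysone response, had 5 members between 114 and 189, and Eip63E had none on 70.3 kb. Among morphogen genes dpp (737) and shn (529.8) act in BMP signalling and had 1 member each. The Wnt receptor gene fz had 1 (445), and pnt had 5 (up to 482). Among chromatin genes Psc (603) had 1 member, the H3K4 methyltransferase gene trx 3 (351, 280.3 and 117) on 4.98 kb, and the zinc-finger gene jing 4 (up to 339). In the growth list kibra had 2 (up to 538), the Hippo pathway gene ex 2 (391 and 149.6) and the insulin receptor gene InR 3 (216, 159.8 and 122).

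The other 6 lists had fewer members per Mb than all genes together, though not always fewer hosts. Only the intervals of the ion channel and axon guidance lists lay below the 21.0 of all genes. Those of the RNA-binding, leg and antenna, muscle and hormone lists included it, so these lists are not told apart from all genes. Only 1 of 41 ion channel and neurotransmitter receptor genes was a host (2.44%, 0.432 to 12.6), at 1.41 members per Mb (0.0357 to 7.87), and it was Ca-beta with a peak of 179. No member lay in nAChRalpha6 on 78.8 kb or in nAChRalpha4 on 57.0 kb. Axon guidance and adhesion genes had 12 hosts of 69 (17.4%) at 11.0 per Mb (6.80 to 16.8), and 7.49 without Fas3, with 0 members in dpr6, Con and CadN. RNA-binding regulators had 9 hosts of 19 (47.4%, 27.3 to 68.3), a higher share than the 17.2% of all genes. Their introns were long, with a median of 58.4 kb of eligible sequence per gene, and held 13.6 members per Mb (7.90 to 21.7). Of all genes with 40 to 80 kb, 52.4% were hosts (41.8 to 62.7), so the list's share was near that of genes of like size. The density of those genes, 26.1 per Mb, was above the list's interval. That of genes with more than 80 kb, 3.59 per Mb, was below it, and the list holds genes of both sizes. Among the RNA-binding hosts shep (557), msi (312), mub (284) and brat (266) led. Leg and antenna patterning, a field in which dac itself acts, had 4 hosts of 34 (11.8%) at 16.5 per Mb (7.55 to 31.3), namely hth with 3 members (up to 214), bab1 with 3 (up to 174), ab with 2 (up to 144) and dysf with 1 (127). Muscle genes had 2 hosts of 18, Zasp52 (256) and mbc (204), at 16.1 per Mb (3.32 to 47.1). Hormone and insulin signalling had 2 of 16, InR (216) and ETHR (122), at 16.3 (4.44 to 41.7).

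**Figure D4:**
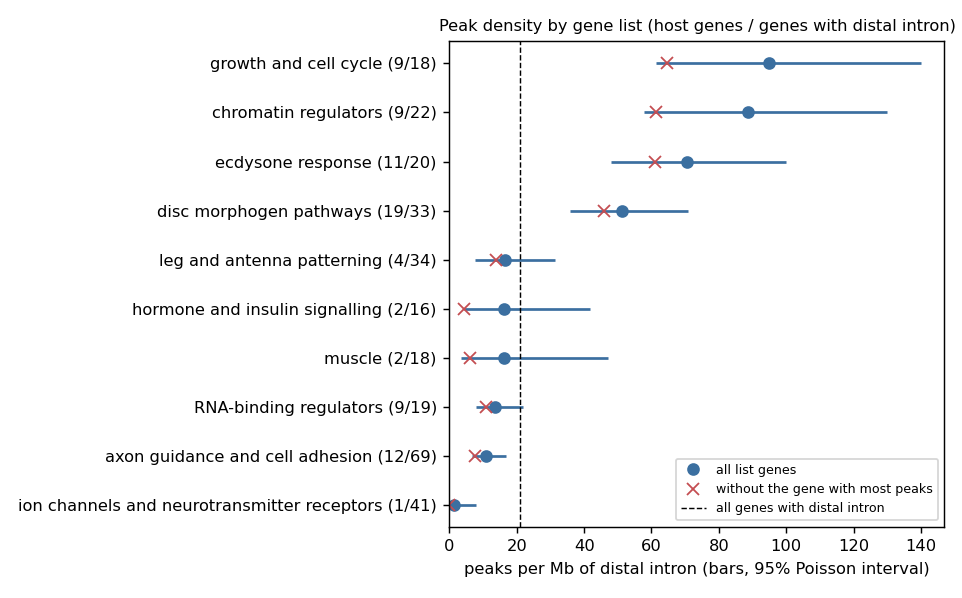
Members per Mb of eligible intron for each gene list (circles) with 95% Poisson intervals (lines), the same without the gene with most members (crosses), and the value of 21.0 for all genes (dashed line); labels give host genes over genes with eligible intron. The growth, chromatin, ecdysone and morphogen lists lay between 51.1 and 94.8, and ion channels and receptors at 1.41.

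Host genes also tended to carry other IDR peaks. Over the 1574 genes, 267 had an IDR peak at a promoter of their own, 17.0%. Among the 270 hosts it was 76 (28.1%, Wilson interval 23.1 to 33.8) and among the 1304 genes without a member 191 (14.6%, 12.8 to 16.7). With more than 20 kb of eligible intron in both groups the shares were 41 of 129 (31.8%, 24.4 to 40.2) and 23 of 210 (11.0%, 7.41 to 15.9). A peak in an intron within 5 kb was present in 47.4% of hosts (41.5 to 53.4) and 14.9% of the other genes (13.0 to 16.9). The hosts of most members did not all follow this. Of the 17 with 5 or more, Eip75B, sbb, pnt, Tet and CG31176 had a peak at their own promoter. Neither kind was present in heca, Snoo, Fas3, CG42741, Prosap, CG42238, cv-c, ed and ftz-f1.

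The summits sat in AT-rich dips inside GC-rich shoulders. The median GC content of the 201 bp windows was 35.3% (interval 34.3 to 35.8), against 40.8% for the 118432 windows tiled over the eligible sequence and 40.8% for flanking windows centred 1000 bp from each summit. Averaged by position, GC was 33.8% at the summit, rose to 46.9% at 250 bp on the side of lower coordinates and 46.5% at 300 bp on the other, and returned to about the tiled value at 1000 bp. Introns within 5 kb (35.8%) and intergenic peaks (35.8%) had like windows, and promoters had 36.3%. GC content also affects recovery in sequencing libraries, and its part in the peak positions was not tested.

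Most of the known sites searched were in a small share of the windows, with AT-rich words the commonest. Matches were counted on both strands within 100 bp of the summit for 20 motifs, and the share of all 118432 tiled windows is given beside each. TGANTCA, whose 4 readings include the AP-1 site, was in 37 windows (7.03%, Wilson interval 5.15 to 9.55) against 3.87%, or 4.22% in tiled windows weighted to the members' GC content. Its readings were counted apart after this was seen. The AP-1 consensus TGACTCA was in 15 (2.85%, 1.74 to 4.65) against 1.61%, with 1.81% in windows 1000 bp away, which lies inside the interval. TGAATCA, which is not that consensus, was in 22 (4.18%, 2.78 to 6.25) against 2.31%, with 2.85% in windows 1000 bp away, also inside. TGATAC, a core of the Sine oculis family, was in 35 (6.65%, 4.82 to 9.11) against 4.58%, or 5.35% at the members' GC content, which lies inside the interval. The insulator protein core GCATACTT of Su(Hw) was in 11 (2.09%, 1.17 to 3.71) against 1.02%, and GGTCACACT, the core of the promoter factor M1BP, in 4 (0.760%, 0.296 to 1.94) against 0.0836%. Only 1 of these 4 lay within 50 bp of a summit, and with the strongest peaks of replicate 3 alone the share was 0.429%. GAGAGAG, bound by GAGA factor, was in 20 (3.80%, 2.47 to 5.80) against 2.50%, inside the interval, but 1.88% at the members' GC content, outside it. Fewer members than tiled windows held the ETS site CCGGAA (12, 2.28% against 4.89%), the Homothorax core TGACAG (30, 5.70% against 8.82%) and the E-box CACGTG (5, 0.951% against 2.23%). At the members' GC content the tiled shares were 3.74%, 7.41% and 1.63%. These lie inside the members' intervals of 1.31 to 3.94, 4.02 to 8.03 and 0.407 to 2.21. The nuclear receptor half-site AGGTCA was in 20 (3.80%, 2.47 to 5.80) against 5.27%. TATAAA was in 170 (32.3%) against 23.6%, but 31.4% at the members' GC content. The homeodomain word TAATTA (14.1% against 13.9%), the Sox word ACAAAG (13.7% against 15.6%) and the Exd-Hox word TGATNNAT (12.9% against 13.4%) were also common.

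Words outside the motif list were searched as well. A scan of all 2080 distinct 6-letter words, counted within 50 bp of the summits and chosen after the data had been seen, was led by GTGCAC and ACAGTG. Within 100 bp GTGCAC was in 75 windows (14.3%, Wilson interval 11.5 to 17.5) against 4.04% of tiled windows, and ACAGTG in 106 (20.2%, 16.9 to 23.8) against 7.30%. Either was in 161 members (30.6%), in 124 genes, and both in 20. The commonest 9-letter run that held ACAGTG was CCACTGTGC with its reverse complement GCACAGTGG, the word in capitals in the windows of heca, Eip74EF, tai, wg and Sema1a. It was in 27 members of 24 genes (5.13%, 3.55 to 7.37), against 0.327% of tiled windows and 0.665% of windows 1000 bp away. Because the word was picked in these windows, that share is a description. In windows that were not used to pick it, it was in 3.41% of intronic peaks within 5 kb, 2.18% of intergenic peaks and 3.19% of promoter peaks. The tiled windows cover distal introns and the flanking windows lie beside members, so neither is a background for these classes. The windows of the 27 had signals from 119 to 585, 3 of them held 2 copies, and 0 lay in annotated transposable elements. Both peaks of scrib with the word overlapped the same replicate peaks.

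The word lay mostly on 1 side of the summit. Read along CCACTGTGC, 38 of 40 matches within 150 bp of a member's summit had the summit before the word (Wilson interval 83.5% to 98.6%), with a median of 63 bp from summit to the centre of the word (quartiles 46 and 90). The same held at 45 of 49 matches in introns within 5 kb (91.8%, 80.8 to 96.8), 19 of 20 in intergenic peaks (76.4% to 99.1%) and 59 of 64 at promoters (92.2%, 83.0 to 96.6), none of which were used to pick the word. With the summits of the single replicates it was 39 of 41 in replicate 1 and 36 of 38 in replicate 3, at medians of 73 and 66 bp. In 2 members, in heca and Sema1a, copies on opposite strands faced each other across the summit with 157 bp between them in heca and 160 bp in Sema1a.

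The commonest 9-letter run around GTGCAC, GTGCACTGA, was in 20 members (3.80%, 2.47 to 5.80) against 0.198% of tiled windows and 0.475% of windows 1000 bp away. Because this run too was picked in the members' windows, that share is a description. In windows not used to pick it, it was in 1.29% of intronic peaks within 5 kb, 2.36% of intergenic peaks and 0.879% of promoter peaks. These classes again have no background of their own. It lay the other way round. Read along this run, 20 of 27 matches within 150 bp had the summit after it, with the centre of the run at a median of −51 bp from the summit, and it was 18 of 20 in introns within 5 kb, 13 of 18 in intergenic peaks and 10 of 14 at promoters. The last 2 shares are not told apart from an even split by their intervals. The site in pum held GTGCACTGA on both strands and so counted on each side of the summit. In 7 members (1.33%) the run extended to GTGCACTGAGAGAAA, against 0.0152% of tiled windows and 0 of the windows 1000 bp away. This longer run was picked in the same windows, so its share is a description too. In the other classes it was in 0.235% of intronic peaks within 5 kb, 0.727% of intergenic peaks and 0.160% of promoter peaks. The members' share of 1.33% was 1.29% with the strongest peaks of replicate 3 alone but 0.339% with those of replicate 1. The 7 members were in Psc, lncRNA:CR46006, uif, CG32137, plum, pum and esn, with signals from 603 in Psc to 117 in esn, and in all 7 the summit lay after the run, whose centre was at −86 to −21 bp.

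**Figure D5:**
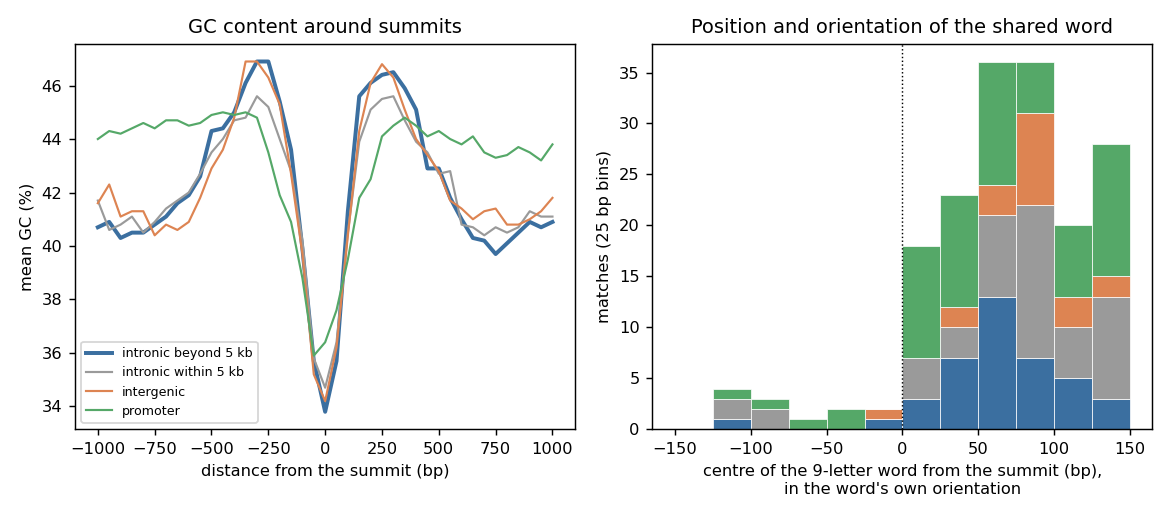
Left, mean GC content (%) against distance from the summit (bp) for members (blue) and the other autosomal classes. Right, number of matches of the 9-letter word in bins of 25 bp by the distance of its centre from the summit, read along the word, stacked by class in the same colours; of the members' 40 matches 38 lay to the right of 0.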

How the data were processed

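ChIP-seq was done on 2 biological replicates of 1 group. The authors deposited peak lists on dm6: an IDR list drawn from both replicates and relaxed lists of 30000 peaks for each replicate and for both pooled. No aligner, peak caller or IDR threshold is named: these were not given in the sources used here. Each peak's signal is a score deposited by the authors without a stated scale, so lists were compared by rank. The deposited −log10 q value was used only for the threshold of 0.05. Read depth is unknown. Lists on dm3 were not used. Summits were classed with Ensembl release 115 (exons of protein-coding and ncRNA genes) on the RefSeq Release 6 genome, whose arm names and lengths hold all peaks. Overlap meant at least 1 bp. The host is the gene body that holds the summit, protein-coding before ncRNA and then the shortest. Of 590 list symbols, 565 matched directly, 13 by synonym and 12 not at all. Another planned gene list is not reported here. Genes were named as hosts of the 25 strongest members, the 10 hosts with most members, up to 4 hosts per list and the peaks next to the distance limit; others were chosen after their values were seen. Members and lists were chosen with earlier results of these data known. No test was run on samples, since there was 1 group. Classification and motif counts were tested on simulated positions and all were recovered. Shares carry Wilson intervals, densities exact Poisson intervals and medians order-statistic intervals, at 95%. Python 3.11.15 with numpy 2.4.6, pandas 2.3.3, scipy 1.17.1 and matplotlib 3.10.9 was used. Alternatives took each replicate's strongest 4137 peaks alone, IDR peaks above the median signal, a distance of 10000 bp, peak midpoints, protein-coding bodies, a reciprocal overlap, narrower windows and other motif backgrounds.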

Additional observations from a re-analysis of the deposited data

How the results depend on the processing

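No paired analysis was possible because the series has 1 group. Of 114 values under alternatives, 82 stayed within the interval or within 1.5 times the count first given, and 32 did not. With the strongest 4137 peaks of either replicate alone, the density ran from 18.6 to 23.5 per Mb, the share found in both lists from 97.4% to 97.8%, the median GC from 35.3% to 36.1%, and hosts in the hormone and insulin list from 1 to 2. The other counts of peaks, hosts and list genes stayed within 1.5 times under both. Median signal was not recomputed there because the scale differs. IDR peaks above the median signal left 221 members in 153 hosts at 8.80 per Mb, 11 hosts with 3 or more, a median signal of 245 and a first-intron share of 43.0%. The host counts were then 4 for RNA-binding, 5 for axon guidance, 7 for ecdysone, 1 for hormone and 2 for leg and antenna genes. Beyond 10000 bp there were 240 members in 133 hosts at 14.5 per Mb, 25 hosts with 3 or more, a first-intron share of 31.7% and 100% in both lists. The host counts were 5 for chromatin, 11 for morphogen, 6 for ecdysone, 5 for growth, 1 for hormone, 0 for ion channel and 0 for muscle genes. Requiring a reciprocal overlap of at least 50% lowered the share in both lists to 79.5%. The territory between the outermost IDR peaks, chosen after the data were seen, gave 28.0 per Mb, and this limit could only raise the density. The cause of these differences was not tested beyond what each alternative leaves out. Of the 20 motifs, the TGANTCA word and those of Sine oculis, GAGA factor, Su(Hw) and M1BP stayed above their background under every alternative run that gave a ratio. The TATA box stayed above too, at ratios from 1.03 to 1.44. The ETS, Homothorax, CACGTG, DREF, nuclear receptor half-site, Scalloped and Sox motifs stayed below it. For GAGA factor, DREF, the half-site, Scalloped and Sox the interval of the members' share included the share of tiled windows. With read depth unknown, weak sites near the lowest signal of 110 cannot be graded further.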
